A study of Mus musculus with 172 samples.

Results

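Trophectoderm (TE) transcription factors were followed in inner cell mass (ICM) cells of mouse blastocysts with and without OCT4, the protein of Pou5f1. The 10 factors, Cdx2, Eomes, Elf5, Gata2, Gata3, Hand1, Tfap2a, Tfap2c, Tead4 and Id2, were taken by gene symbol, not by their level in these cells, and are 10 of the 49671 genes counted in every cell. The data are Smart-seq2 transcriptomes (full-length cDNA sequencing of cells picked into separate wells) of single cells from 19 embryos of Pou5f1 heterozygote intercrosses on mixed genetic backgrounds. The TE was lysed off by immunosurgery, in which antibody and complement reach outer cells only, and its lysate gave the genotype. At E3.5, the mid-blastocyst, 29 cells from 4 homozygous Pou5f1 null embryos (E3.5 MUT) were compared with 58 cells from 7 control embryos (E3.5 WT/HET, 5 wild-type and 2 heterozygous). At E4.5, the implanting blastocyst, 19 cells from 2 null embryos (E4.5 MUT) were compared with 37 epiblast (EPI) and 29 primitive endoderm (PrE) cells, both from the same 6 control embryos (2 wild-type and 4 heterozygous).

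The EPI and PrE names were given by the study from the transcriptomes of these same cells, so they are not independent of the genes compared. The null embryos lack Pou5f1 in every cell, including the TE that surrounded the ICM until dissection. All E4.5 cells were on plate 1 and all E3.5 cells on plate 2, so stage and plate cannot be told apart. The embryo was the replicate throughout, with its cells' counts summed, and the 2 null embryos at E4.5 limit every comparison at that stage.

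The TE is the outer epithelium of the blastocyst, which forms the fetal part of the placenta and mediates implantation. In the outer cells TEAD4, with its coactivator YAP, acts upstream of CDX2 and GATA3, whereas EOMES and ELF5 act with CDX2 in the self-renewing trophoblast of the polar TE. TFAP2C is present from cleavage stages on and TFAP2A is its paralogue. GATA2 and HAND1 serve differentiating trophoblast, HAND1 in the giant cell lineage, and ID2 inhibits other basic helix-loop-helix factors by dimerization. OCT4 and NANOG are factors of the pluripotent ICM and EPI.

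Promoter sequence of 3 factors is shown here because they stand for the different courses described below, Gata3 high in MUT cells at E3.5, Gata2 without a count in them at E3.5 but counted at E4.5, and Cdx2 not called in any comparison. The 250 bases before each RefSeq start (GRCm38.p6) were read for 7 of the 10 factors, and none was read for Hand1, Tfap2c or Tead4. Capitals mark letters that match the POU octamer (ATGCAAAT), the TEAD site (spelled GGAATG), the letters of a GATA core (spelled GATAA) or the TFAP2 site (GCCNNNGGC), on either strand, and no marked matches overlap in the 3 windows. The Cdx2 window is chr5:147307250-147307499 on the minus strand, the Gata3 window chr2:9878601-9878850 on the minus strand, and the Gata2 window, before the second of its RefSeq starts, chr6:88198414-88198663 on the plus strand. Each is written 5′ to 3′ on the strand of its gene.
Cdx2: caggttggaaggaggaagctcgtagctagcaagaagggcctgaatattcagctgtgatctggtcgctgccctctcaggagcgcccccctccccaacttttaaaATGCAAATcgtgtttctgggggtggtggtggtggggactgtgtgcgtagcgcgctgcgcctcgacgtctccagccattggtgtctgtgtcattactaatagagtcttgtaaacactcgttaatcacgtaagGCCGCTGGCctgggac
Gata3: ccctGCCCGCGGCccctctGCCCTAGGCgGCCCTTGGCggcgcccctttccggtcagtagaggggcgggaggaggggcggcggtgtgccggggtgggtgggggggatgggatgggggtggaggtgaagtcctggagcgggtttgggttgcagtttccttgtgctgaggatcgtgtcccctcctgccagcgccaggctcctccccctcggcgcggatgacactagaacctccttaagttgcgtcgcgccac
Gata2: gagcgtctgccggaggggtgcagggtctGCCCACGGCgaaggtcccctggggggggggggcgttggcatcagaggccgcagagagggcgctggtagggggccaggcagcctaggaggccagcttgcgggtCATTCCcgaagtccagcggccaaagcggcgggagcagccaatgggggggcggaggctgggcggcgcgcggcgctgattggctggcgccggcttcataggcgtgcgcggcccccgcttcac

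In the Cdx2 window an octamer started at position -147 and a TFAP2 site at -16, counted from the RefSeq start. That start is not always the end of the gene in the annotation used for counting, in which the last bases of the Cdx2 window and the whole of the Gata3 and Gata2 windows shown lie inside the gene. The Gata3 window held 3 TFAP2 sites, at -246, -231 and -221. The Gata2 window held a TFAP2 site at -222 and, on the opposite strand, a TEAD site at -120. Over 32851 such windows of all genes, the octamer was in 1.6%, the TFAP2 site in 13.7%, the TEAD site in 12.6% and GATAA in 22.6%. Of the other windows, that before the first Gata2 start held none of the 4 motifs, 1 of the 2 for Elf5 held a TEAD site and the other a GATAA, and those of Eomes, Id2 and Tfap2a held none of the 4 motifs. These are matches of letters and were not tested for binding.

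Cells had between 363819 and 4644070 read pairs assigned to genes, and the group medians lay between 1318327 (E3.5 MUT) and 1772045 (PrE). The share of reads with several alignments was higher at E3.5 (medians of 41.1% in MUT and 38.8% in WT/HET) than at E4.5 (19.7% to 24.9%). Pou5f1 itself matched the labels, with 25067 counts in E3.5 WT/HET cells against 156 in E3.5 MUT (log2 fold change -6.11 ± 0.37 SE, adjusted p = 3.18e-06, edgeR), and 0 counts in E4.5 MUT against 10088 in EPI and 3976 in PrE. Yet 21 of 29 E3.5 MUT cells had at least 1 Pou5f1 count, 10 had at least 5, and 2 were at 10 CPM or more. The source of these counts was not tested. Detection from 1 count, as used below, is therefore a lenient threshold. One control cell stood apart. HET cell 8 of embryo 15, at E3.5, had 9 of the 10 factors, no Nanog count and 191 of the 210 Gata2 counts of all E3.5 control cells. The counts of 10 TE marker genes (keratins, claudin, transporters and others) were summed as a rough measure of TE RNA. In marker sums, single cells and pooled levels, CPM are counts relative to the library total. For the factors and Nanog in embryo sums they are relative to its normalized size. The TE marker sum was 748 to 1702 CPM in E3.5 MUT embryos and 234.5 to 1091 in E3.5 WT/HET, with embryo 15 highest. At E4.5 it was 9195 to 9845 CPM in MUT, 162.3 to 770.9 in EPI and 775.7 to 1783 in PrE. Of those markers, Krt19 was at 1 count in E3.5 MUT, and Krt7 and Plac1 were at 0 in EPI. The sum leaned on Fabp3, with 23773 counts in the 29 E3.5 MUT cells and 4772 in the 58 E3.5 WT/HET cells. Krt18 (4789 and 4298) and Cldn4 (7466 and 6108) were also higher in E3.5 MUT. Krt8 (7984 and 18227), Plet1 (1219 and 5667) and Aqp3 (3706 and 12298) were not. Fabp3 had 49752 counts in PrE and 121971 in E4.5 MUT, so the sum is not specific to TE. The lineage names fitted their markers, with 8 EPI markers summing to 2309 to 4157 CPM in EPI and 183 to 365.6 in PrE, and 8 PrE markers to 2157 to 3493 CPM in PrE and 4.22 to 27.3 in EPI. In E4.5 MUT these sums were 498.9 and 1165 CPM for EPI markers and 300.5 and 310.8 for PrE markers. The part of TE cells left after immunosurgery in the levels that follow was not tested.

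**Figure D1:**
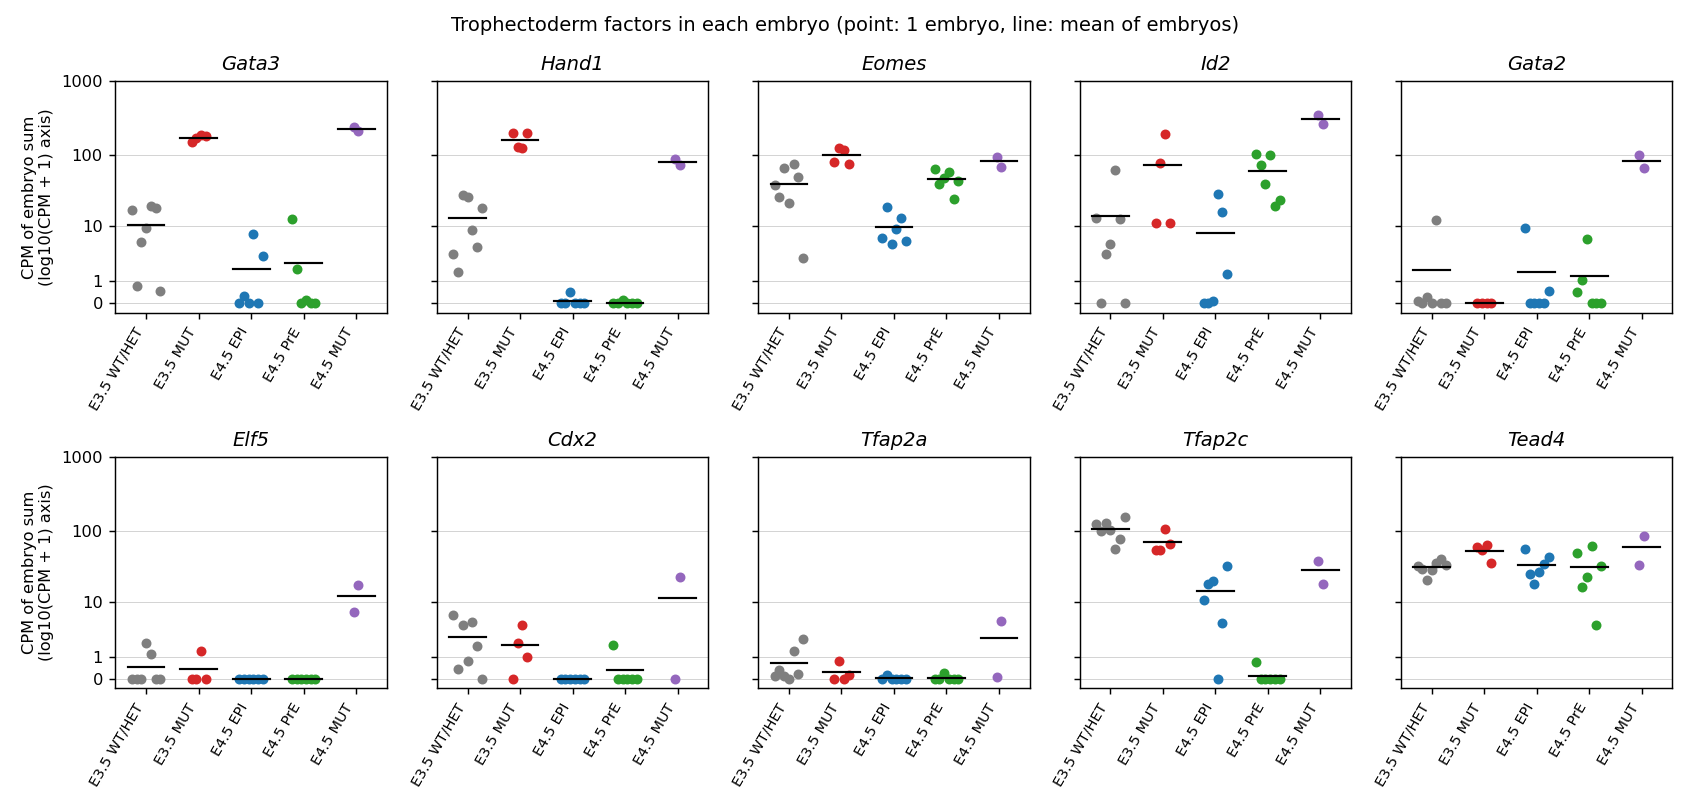
Level of each factor in the summed cells of every embryo (CPM, on a log10(CPM + 1) axis), by group, with the mean of embryos as a line. Gata3 and Hand1 are high in all 4 E3.5 MUT embryos and both E4.5 MUT embryos, whereas Gata2 lies at 0 in the 4 E3.5 MUT embryos and at 65.2 and 98.8 CPM in the E4.5 MUT embryos.

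Absence of OCT4 was accompanied at E3.5 by higher Gata3 and Hand1, and by no call for the other factors tested. Of the 7 factors that passed the filter on low counts, 2 were called higher in E3.5 MUT than in WT/HET and 0 lower (edgeR quasi-likelihood test, adjusted p under 0.05). Over all genes tested in this comparison 3.2% were called higher and 2.98% lower, and at an unadjusted p under 0.05 there were 4 of the 7 factors and 2588 of all 12075 genes. Elf5, Gata2 and Tfap2a were too low to be tested at this stage.

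Gata3 (chr2:9857078-9890034, minus strand), a zinc-finger factor of early TE, was at 149, 167, 189 and 182 CPM in the 4 E3.5 MUT embryos, a mean of 171.5 ± 17.8 (SD, n = 4). In the 7 control embryos it was 0.483 at the lowest, 9.34 at the median and 19.5 at the highest (mean of 10.23 ± 8.31, n = 7). No control embryo reached the MUT range, with a log2 fold change of 4.08 ± 0.73 SE (adjusted p = 0.00694, edgeR). Without HET cell 8 of embryo 15 it was 4.37 (adjusted p = 0.00458, edgeR). All 29 E3.5 MUT cells had a Gata3 count, as did 32 of 58 control cells. Gata3 overlaps 3 other annotated genes, Tead4, Tfap2a and Eomes 1 each, and the use of strand in counting is not given in the sources used here.

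Hand1 (chr11:57828705-57832818, minus strand), a basic helix-loop-helix factor of trophoblast giant cells, was at 198, 128, 123 and 197 CPM in the E3.5 MUT embryos (mean of 161.2 ± 41.7 SD, n = 4). The control embryos ranged from 1.68 through a median of 8.86 to 28.05 CPM (mean of 13 ± 10.9, n = 7). Again no embryo of one group reached the other, and the log2 fold change was 3.67 ± 0.62 SE (adjusted p = 0.00561, edgeR). Hand1 was counted in 27 of 29 MUT cells, and Gata3 and Hand1 together in those same 27. In a sum, more cells with a factor and more RNA per cell cannot be told apart, so the cells are counted beside the sums. Both calls were kept in 17 of 17 alternative analyses, which left out each embryo or that control cell, or changed the tool, the filter or the controls.

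Eomes, Id2 and Tead4 had higher means in E3.5 MUT without reaching the threshold. Eomes (chr9:118478212-118486132, plus strand), a T-box factor of polar TE, was at 78.9, 123, 116 and 75.9 CPM in MUT embryos and at 3.14 to 74.7, median 38.6, in controls. The ranges just failed to touch, and the log2 fold change of 1.33 ± 0.54 SE did not pass (adjusted p = 0.167, edgeR). Tead4 (chr6:128224288-128300823, minus strand) was at 35.8 to 63.1 CPM in MUT against 21 to 40.6 in controls, with a log2 fold change of 0.76 ± 0.22 SE (adjusted p = 0.0632, edgeR). That value crossed the threshold with DESeq2 (adjusted p = 0.0165) and without embryo 19 (0.90, adjusted p = 0.0388, edgeR). With cells weighted equally the difference was -0.01 (adjusted p = 0.993, limma). In runs so named, here and below, log2(CPM + 1) was averaged over the cells of an embryo. Their values also follow the share of cells with a count, and differ in scale from fold changes of sums. Tead4 was counted in 23 of 29 MUT cells and 54 of 58 control cells.

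Id2 (chr12:25093799-25097140, minus strand) was uneven among the MUT embryos, at 11.05, 76.7, 193 and 11.2 CPM. Embryo 17 was the highest of them, and 1 of its cells, E3.5 MUT cell 25, held 1968 of the 3410 MUT counts. In the controls Id2 was 0 to 62.6 CPM with a median of 5.24, embryo 15 being the highest. The log2 fold change of 2.41 ± 1.24 SE did not pass (adjusted p = 0.288, edgeR), nor did the 3.19 obtained without HET cell 8 of embryo 15 (adjusted p = 0.115, edgeR).

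Tfap2c (chr2:172549593-172558622, plus strand) was the factor most widely shared by mutant and control cells at E3.5. It was counted in all 29 MUT and all 58 WT/HET cells, at 54.2, 54.9, 105.7 and 65.9 CPM in the MUT embryos and 55.9 to 151.9, median 102, in the controls. The ranges overlapped, and the log2 fold change of -0.56 ± 0.28 SE did not pass (adjusted p = 0.287, edgeR). Cdx2 (chr5:147300805-147307270, minus strand), a homeobox factor needed to maintain the TE, stayed low in both groups. It was 0, 2.04, 4.39 and 0.971 CPM in MUT embryos and 0 to 6.42, median 1.81, in controls, with a log2 fold change of -0.48 ± 1.25 SE (adjusted p = 0.879, edgeR). HET cell 8 of embryo 15 held 82 of the 233 control counts, and without it the value was -0.06 (adjusted p = 0.991, edgeR). Cdx2 was counted in 5 of 29 MUT cells, 17.2% (exact 95% interval 5.85% to 35.8%), and in 13 of 58 control cells, 22.4% (12.5% to 35.3%). Binomial intervals and limits here and below cover counting error only.

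The untested factors were near 0. Elf5 (chr2:103411688-103450989, plus strand), an ETS factor of trophoblast stem cells, had 16 counts in E3.5 MUT, all in cell 25, and 50 in WT/HET, in 2 cells, 20 of them in HET cell 8. Tfap2a (chr13:40715302-40738376, minus strand) had 11 counts in 3 MUT cells and 52 in 7 control cells, 24 of them in HET cell 8. Gata2 (chr6:88193891-88207032, plus strand), a zinc-finger factor of trophoblast, had 0 counts in the 29 MUT cells, which by 3 cells of the total allows a share of cells with a count of up to 10.3%, and 11.9% by the exact 95% interval. In the E3.5 controls Gata2 was at 12.15 CPM in embryo 15 and at most 0.225 in the others.

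**Figure D2:**
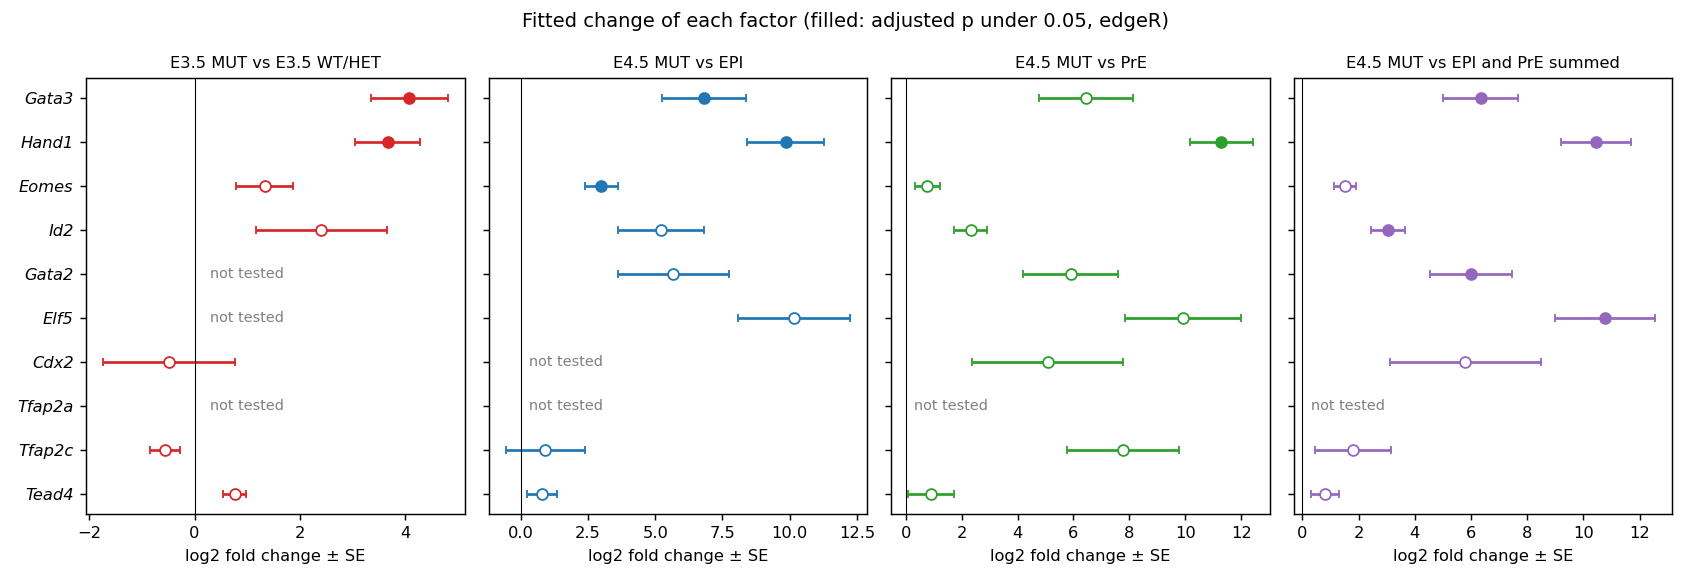
Fitted log2 fold change (x axis, ± SE) of each factor in MUT against its stage's controls, from the edgeR model of 4 comparisons, with filled points for an adjusted p under 0.05. Hand1 is filled in each panel, Gata3 in 3 of the 4, and Gata2, Elf5 and Id2 only against EPI and PrE summed.

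At E4.5 the MUT embryos were set against EPI, against PrE and against the whole control ICM (EPI and PrE summed per embryo). These 3 comparisons share the 2 MUT embryos and, in part, the controls, so they do not add to each other. Hand1 was called higher in all of them, Gata3 and Eomes in some, and Gata2, Elf5 and Id2 only against the whole ICM, by edgeR. No factor was called lower in any of the 3. A run that leaves out either MUT embryo keeps no replicate of E4.5 MUT, so its spread comes from the other groups only.

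Against EPI, 3 of the 8 factors tested were called higher, and 0 lower, with 2.3% of all genes called higher and 2.62% lower, and 6 of the 8 at an unadjusted p under 0.05, as were 2455 of all 12953 genes. Hand1 was at 86.9 and 72.9 CPM in the MUT embryos and at 0 in 5 of the 6 EPI sums, the remaining one at 0.404 (5 counts in 1 cell). The Hand1 counts of MUT embryo 8 all came from 1 of its 8 cells, those of embryo 3 from 6 of 11. Its log2 fold change was 9.85 ± 1.43 SE (adjusted p = 0.0044, edgeR), and the call was kept whichever of the 8 embryos was left out. For Gata3 against EPI, DESeq2 gave a log2 fold change of 6.97 and no adjusted p. Gata3 was at 242 and 212 CPM in MUT and 0 to 7.54, median 0.132, in EPI (log2 fold change 6.81 ± 1.55 SE, adjusted p = 0.0376, edgeR). This call was lost without embryo 2 (adjusted p = 0.0646), 3 (0.151), 7 (0.0696) or 8 (0.117). Eomes was at 93.04 and 69.1 CPM in MUT against 5.41 to 18.7, median 7.76, in EPI (log2 fold change 3.00 ± 0.60 SE, adjusted p = 0.0221, edgeR). It was lost without either MUT embryo (adjusted p = 0.207 without embryo 3 and 0.0967 without embryo 8, edgeR).

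Against PrE, 1 of 9 factors tested, Hand1, was called higher (log2 fold change 11.28 ± 1.13 SE, adjusted p = 0.000708, edgeR), where 1.74% of all genes were called higher and 2.07% lower. Hand1 had 1 count in the 29 PrE cells and 2354 in the 19 MUT cells, a ratio of pooled levels of 3990 with a 95% counting interval of 715 to 158000. Of the 9 factors 6 had an unadjusted p under 0.05, as did 2015 of all 12246 genes. Eomes was at 24.5 to 63.7 CPM in PrE, below both MUT embryos, with a log2 fold change of 0.77 ± 0.44 SE that did not pass (adjusted p = 0.419, edgeR). Gata3 was 0 to 12.8 CPM in PrE, below both MUT embryos, with a log2 fold change of 6.46 ± 1.68 SE that did not pass (adjusted p = 0.0692, edgeR). It passed without embryo 1, the highest PrE sum (8.84, adjusted p = 0.0122, edgeR), with no filter on low counts (adjusted p = 0.0305, edgeR) and with cells weighted equally (adjusted p = 0.00143, limma).

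Against the whole ICM, 5 of 9 factors tested were called higher, and 0 lower, with 3.1% of all genes called higher and 4.27% lower, and 6 of the 9 at an unadjusted p under 0.05, as were 3058 of all 14105 genes. They were Hand1 (log2 fold change 10.44 ± 1.25 SE, adjusted p = 0.00174, edgeR), Id2, Gata3, Gata2 and Elf5. Id2 was at 345 and 260 CPM in the MUT embryos, and at 19.5 to 103.9 in PrE and 0 to 29.1 in EPI, so that MUT was above both (against the whole ICM 3.05 ± 0.60 SE, adjusted p = 0.0157, edgeR). Eomes did not pass (1.52 ± 0.40 SE, adjusted p = 0.0503, edgeR), but did with DESeq2 (adjusted p = 0.00819), with RLE size factors (0.0447, edgeR) and without embryo 1 (0.0299, edgeR). Id2, not called against EPI or PrE by edgeR (adjusted p = 0.0937 and 0.0642), was called against EPI with cells weighted equally (0.00193, limma) and against PrE with DESeq2 (0.00335) or with no filter (0.0345, edgeR). Gata3 had a log2 fold change of 6.35 ± 1.33 SE (adjusted p = 0.0205, edgeR). Hand1 kept its call whichever of the 8 embryos was left out. Gata3 lost it without embryo 3 (adjusted p = 0.0747, edgeR) or 8 (0.0536), and Id2 without embryo 3 (0.0849). With the 2 wild-type embryos as the only controls, 0 factors and 25 of all genes were called by edgeR against the whole ICM, and 0 factors and 48 genes against EPI. Against PrE with those controls, Hand1 lost its call (adjusted p = 0.114, edgeR) and Gata3 gained one (11.34, adjusted p = 0.0383, edgeR).

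Gata2 was the factor called between the 2 stages of MUT cells by edgeR. It was at 98.8 and 65.2 CPM in the E4.5 MUT embryos and at 0 counts in all 4 E3.5 MUT embryos, at least 1200-fold higher by the pooled levels (3 counts over the group as the floor). In the comparison of E4.5 MUT with E3.5 MUT it was the 1 factor called higher of 9 tested (adjusted p = 0.0114, edgeR), where 3.08% of all genes were called higher and 3.69% lower, and 4 of the 9 had an unadjusted p under 0.05, as did 3495 of all 12714 genes. The call was lost without embryo 3 (adjusted p = 0.0719, edgeR). Stage and plate change together in this comparison.

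At E4.5 itself Gata2 was at 9.29 CPM in 1 EPI sum, 0.486 in another and 0 in 4, and at 0 to 6.42 CPM in PrE. Its log2 fold change was 5.67 ± 2.06 SE against EPI (adjusted p = 0.161, edgeR) and 5.90 ± 1.69 SE against PrE (adjusted p = 0.0848, edgeR), and 5.99 ± 1.46 SE against the whole ICM (adjusted p = 0.0378, edgeR). The last call was lost without embryo 2, 3, 4, 7 or 8, with adjusted p from 0.0566 to 0.151. The call was gained against EPI without embryo 1 (9.52, adjusted p = 0.01, edgeR), and against PrE without embryo 4 (7.89, adjusted p = 0.0323, edgeR) or with cells weighted equally (2.59, adjusted p = 0.00801, limma). Both MUT embryos were above every EPI and PrE sum.

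Elf5 was at 6.95 and 17.3 CPM in the E4.5 MUT embryos and had no count in any EPI or PrE cell. By the floor of 3 counts over the group this is at least 231-fold higher than EPI and at least 187-fold higher than PrE. The fitted value against the whole ICM, 10.77 on the log2 scale, depends on the prior count and is no measure of size (adjusted p = 0.0395, edgeR). That call was lost without embryo 2, 3, 4, 5, 7 or 8, with adjusted p from 0.054 to 0.148. Elf5 did not pass against EPI or PrE by edgeR (adjusted p = 0.0757 and 0.0848) and did with DESeq2 (0.0142 and 0.0374) and with limma (0.0242 and 0.0338). It came from 3 of 19 MUT cells, and 2 of them held 87.9% of its 331 counts. Against E3.5 MUT the log2 fold change was 4.99 ± 2.11 SE (adjusted p = 0.175, edgeR).

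Cdx2 and Tfap2a were seen in E4.5 MUT mostly in embryo 8. Cdx2 was at 22.9 CPM there and at 0 in embryo 3, with 284 counts in 4 cells, against 0 counts in EPI and 14 in PrE. It was not tested against EPI, and against PrE its log2 fold change of 5.08 ± 2.70 SE did not pass (adjusted p = 0.398, edgeR). Tfap2a was at 5.16 CPM in embryo 8 and 0.0599 in embryo 3, from 4 cells, against 1 count in EPI and 2 in PrE. It was too low for the test in each comparison of MUT with a control group.

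Tfap2c and Tead4 did not separate MUT from EPI. Tfap2c was at 38.3 and 18.1 CPM in E4.5 MUT and 0 to 32.45, median 14.4, in EPI (log2 fold change 0.91 ± 1.46 SE, adjusted p = 0.83, edgeR). In PrE it had 5 counts in 1 of 29 cells, and MUT exceeded it with a log2 fold change of 7.77 ± 2.01 SE that did not pass (adjusted p = 0.0685, edgeR), though it did with DESeq2 (7.94, adjusted p = 0.00964) and with cells weighted equally (2.98, adjusted p = 0.00056, limma). With cells weighted equally it also passed against the whole ICM (2.16, adjusted p = 0.0149, limma). Tead4 was at 34 and 85.4 CPM in E4.5 MUT, 18.2 to 55.3 in EPI and 4.37 to 60.95 in PrE, and the groups overlapped throughout. The sign of Tead4 in these comparisons turned in the limma run with cells weighted equally. Without embryo 8 it also turned against EPI (-0.05) and against the whole ICM (-0.04).

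From E3.5 MUT to E4.5 MUT the mean of Hand1 went from 161.2 to 79.9 CPM, of Gata3 from 171.5 to 226.8, of Id2 from 73 to 303 and of Tfap2c from 70.2 to 28.2. None of these 4 passed the edgeR test. The log2 fold changes were -1.11 ± 0.36 SE for Hand1 (adjusted p = 0.0989, edgeR) and 0.31 ± 0.26 SE for Gata3 (0.483). They were 1.98 ± 1.02 SE for Id2 (adjusted p = 0.247, edgeR) and -1.40 ± 0.51 SE for Tfap2c (0.13). On means of log2(CPM + 1) with cells weighted equally, limma gave differences of -4.15 for Hand1 (adjusted p = 0.0039), 2.74 for Id2 (0.0331) and -2.75 for Tfap2c (0.0101). Gata3 changed sign there (-0.56, adjusted p = 0.398, limma). Per kilobase of exon, which allows levels of different genes to be ordered, E3.5 MUT was led by Hand1 (80.7 ± 20.9 CPM per kilobase, SD, n = 4), Gata3 (43.1 ± 4.47) and Id2 (29.9 ± 35.2). Id2 overlaps its neighbours in that order. In E4.5 MUT the order was Id2 (124 ± 24.7, n = 2), Gata3 (57.0 ± 5.41), Hand1 (39.99 ± 4.96), Eomes (19.5 ± 4.07), Tead4 (16.6 ± 10.1) and Gata2 (15.2 ± 4.4), the last 3 within each other's spread. Elf5 and Tfap2a came last in E4.5 MUT at 2.06 and 0.532 CPM per kilobase.

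A stage by genotype interaction compared the MUT effect at E4.5, against the whole ICM, with that at E3.5. It was called for 2 of the 10 factors, Hand1 and Gata2, both higher at E4.5, where 2.71% of all genes were called higher and 2.75% lower, and 6 of the 10 had an unadjusted p under 0.05, as did 3354 of all 16410 genes. For Hand1 the difference in log2 fold change was 6.68 ± 1.23 SE (adjusted p = 0.00306, edgeR), while the mean of Hand1 itself was lower in E4.5 MUT than in E3.5 MUT, and close to 0 in the E4.5 controls against a mean of 13 CPM in the E3.5 controls. With cells weighted equally the difference was -2.12 (adjusted p = 0.15, limma), whereas the other 24 of 25 alternatives kept the call. For Gata2 it was 13.6 ± 3.82 SE (adjusted p = 0.048, edgeR), a fitted value that rests on a group at 0 and was called in 12 of 25 alternatives. Without HET cell 8 it was 10.49 (adjusted p = 0.0459, edgeR). For Gata3 the interaction was 2.25 ± 1.5 SE and did not pass (adjusted p = 0.428, edgeR).

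Between the control lineages, Eomes was lower in EPI than in PrE. Of 3 factors tested it was the 1 called lower (log2 fold change -2.26 ± 0.48 SE, adjusted p = 0.00686, edgeR), where 5.2% of all genes were called lower and 4.61% higher, and 2 of the 3 factors had an unadjusted p under 0.05, as did 2106 of all 9762 genes. EPI sums were at 5.41 to 18.7 CPM, median 7.76, and PrE sums at 24.5 to 63.7, median 46.1, with no overlap. Since both come from the same 6 embryos, the embryo was also fitted as a block, which gave -2.36 (adjusted p = 0.047, edgeR). Id2 was also lower in EPI by its mean, 7.79 against 59.4 CPM, and did not pass (adjusted p = 0.198, edgeR), but did with cells weighted equally (-4.07, adjusted p = 0.000391, limma). Eomes was counted in 24, Id2 in 26 and Tead4 in 19 of the 29 control PrE cells.

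**Figure D3:**
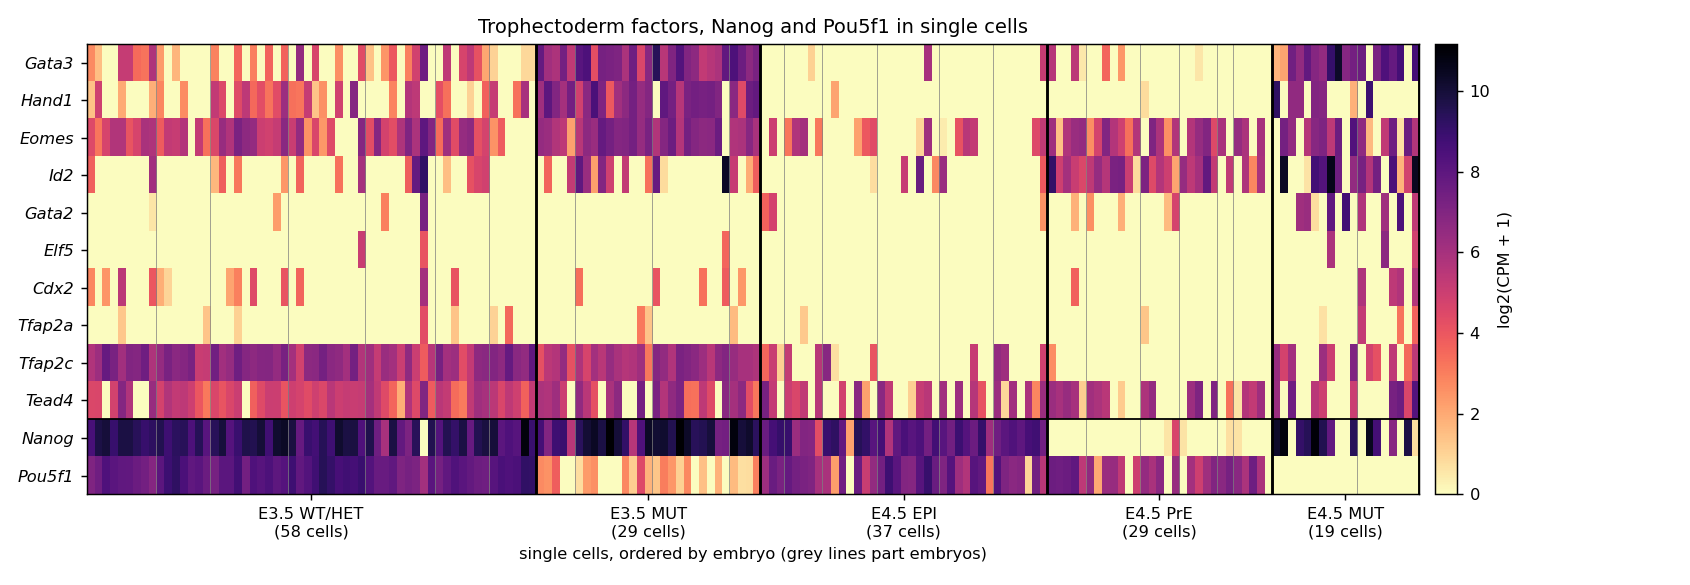
Level of the 10 factors and Nanog, with Pou5f1 below them, in every single cell (log2(CPM + 1) by colour), with cells ordered by group and embryo. Gata3, Hand1, Eomes and Tfap2c run across nearly all E3.5 MUT cells, whereas in E4.5 MUT Gata2 is in 9, Hand1 in 7 and Elf5 in 3 of 19 cells.

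In single cells, E3.5 MUT cells carried the same few factors together, whereas E4.5 MUT cells differed from each other. With at least 1 count as detection, an E3.5 MUT cell had 4 to 7 of the 10 factors (median 6), and the mean of embryo means was 5.59 ± 0.473 (SD, n = 4). E3.5 WT/HET cells had 2 to 9 (median 4, mean of embryo means 4.56 ± 0.633, n = 7). The embryo means were 5.2 to 6.25 in MUT and 3.67 to 5.30 in WT/HET and so overlapped. They did not overlap with detection at 5 counts (5 to 5.75 against 3 to 4.8), at 10 CPM (4.9 to 5.25 against 2.57 to 4.3) or with every cell thinned to the lowest total of the stage (5.2 to 6.25 against 3.17 to 5.1). At least 5 factors were found in 27 of 29 MUT cells and 27 of 58 control cells at E3.5. With a threshold of 10 CPM in its place the numbers were 23 of 29 and 14 of 58.

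E4.5 EPI cells had 0 to 6 factors (median 2, mean of embryo means 1.91 ± 0.539, n = 6) and PrE cells 0 to 6 (median 3, mean 2.74 ± 0.945, n = 6). E4.5 MUT cells had 2 to 9 (median 4, mean of embryo means 4.96 ± 0.587, n = 2). The embryo means of MUT, 4.55 and 5.38, were above every EPI mean (1.38 to 2.67) and every PrE mean (1.5 to 4.2). At least 5 factors were found in 9 of 19 MUT cells, 1 of 37 EPI cells and 3 of 29 PrE cells. Thinning every cell to the lowest total of its stage left the medians of MUT, PrE and E3.5 WT/HET cells at 4, 3 and 4 and gave 5 for E3.5 MUT and 1 for EPI. The cells with the most factors, HET cell 8 at E3.5 and MUT cell 19 at E4.5, each had 9, all but Hand1, with 0 and 1 Nanog counts.

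**Figure D4:**
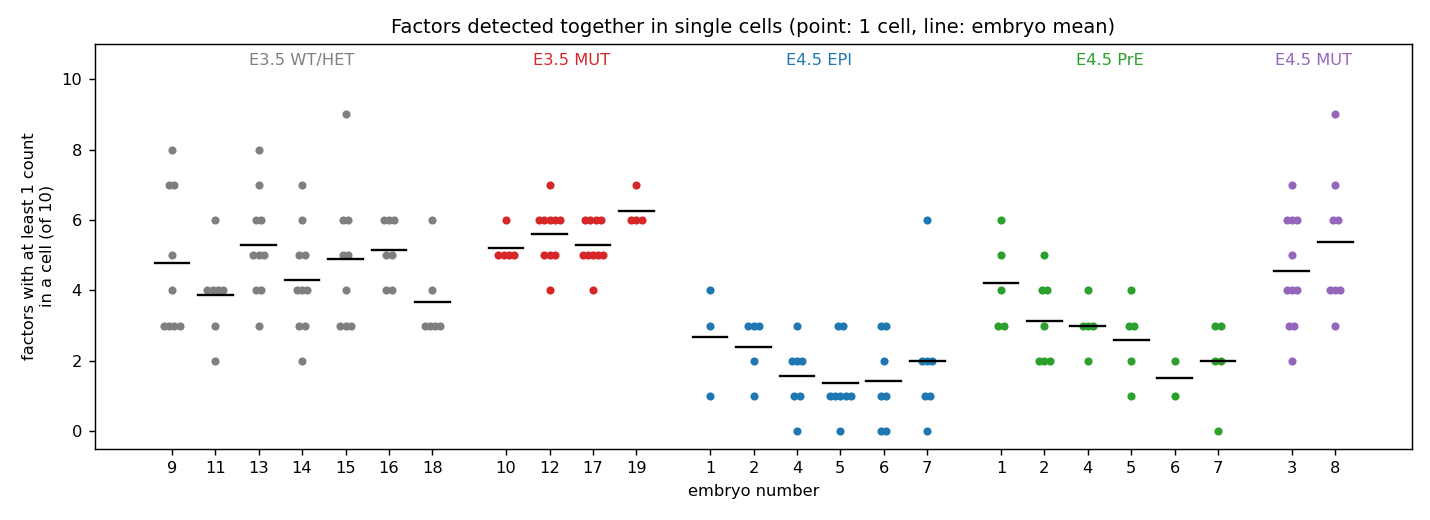
Number of the 10 factors with at least 1 count in each cell (y axis), by embryo (x axis) and group, 1 point a cell, with lines at embryo means. E3.5 MUT cells lie between 4 and 7, E4.5 MUT cells between 2 and 9, and most EPI and PrE cells at 3 or fewer.

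Nanog, a pluripotency factor of EPI, was counted in all 29 E3.5 MUT cells and in 57 of 58 E3.5 WT/HET cells. Any factor counted in an E3.5 MUT cell was therefore found beside it. Gata3, Hand1, Eomes and Nanog were detected together in 27 of 29 E3.5 MUT cells, which are all the cells with Hand1. All 4 were at 10 CPM or more in 26. In E3.5 WT/HET cells they were together in 19 of 58, but at 10 CPM or more in 3. No EPI or PrE cell had the 4 together, and 3 of 19 E4.5 MUT cells did. Nanog itself was at 367 to 998 CPM in E3.5 MUT embryos and 423 to 775 in controls (log2 fold change 0.32 ± 0.24 SE, adjusted p = 0.499, edgeR). In E4.5 MUT it was at 665 and 386 CPM and in EPI at 135 to 408 (0.87 ± 0.36 SE, adjusted p = 0.22, edgeR), and with cells weighted equally the difference turned to -2.03 (adjusted p = 0.0595, limma). Against PrE, at 0 to 5.82 CPM, it was called higher (8.83 ± 1.42 SE, adjusted p = 0.00877, edgeR). DESeq2 gave no adjusted p for Nanog there (log2 fold change 8.98). Of the other 12 alternatives 11 kept the call, all but the run without embryo 3. Against the whole ICM it was also called higher (1.70 ± 0.44 SE, adjusted p = 0.0476, edgeR), a call kept in 1 of 8 runs that left out an embryo (that without embryo 2) and lost in the other 7 (adjusted p from 0.0507 to 0.292), with wild-type controls only (0.15, edgeR) and with cells weighted equally (0.377, limma). It was counted in 13 of 19 E4.5 MUT cells, 37 of 37 EPI cells and 5 of 29 PrE cells.

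In E4.5 MUT Hand1 was in fewer cells than Gata3. Gata3 was in 17 of 19 cells, 89.5% (exact 95% interval 66.9% to 98.7%), and Hand1 in 7, 36.8% (16.3% to 61.6%), of which 2 held 71.5% of the Hand1 counts. These 2 cells, cell 1 at 599 and cell 13 at 477 CPM of Hand1, had 2.31 and 0 CPM of Gata3, and 1227 and 1443 CPM of Nanog. Gata3 was in 6 of the 7 Hand1 cells. Eomes was in 15 cells and Id2 in 14, with both in 13.

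Gata2 was in 9 of 19 E4.5 MUT cells, 47.4% (exact 95% interval 24.4% to 71.1%), 5 in embryo 3 and 4 in embryo 8, and all 9 also had Gata3. Of those 9, 8 had both at 10 CPM or more. Gata2 and Tfap2c were mostly in different cells, with both in 2, Gata2 alone in 7, Tfap2c alone in 9 and neither in 1. The 3 Elf5 cells all had Gata2, Gata3 and Eomes, and none had Hand1. The 4 Cdx2 cells all had Eomes, Gata3 and Id2, 3 had Tfap2a and none had Hand1.

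Nanog was not even over these cells. Its median was 0.715 CPM in the 9 E4.5 MUT cells with Gata2 and 723 in the 10 without, and 0.357 in the 4 with Cdx2 against 684 in the 15 without. It was 763 CPM in the 7 cells with Hand1 and 57.5 in the 12 without, and 684 in the 11 with Tfap2c against 0 in the 8 without. For Gata2 and Tfap2c these differences were large in embryo 8 and small in embryo 3. Within embryo 8 the median Nanog level was 0 in the 4 cells with Gata2 and 634 CPM in the 4 without, and within embryo 3 it was 548 in the 5 with and 723 in the 6 without. For Tfap2c it was 406 CPM in the 5 cells with and 0 in the 3 without in embryo 8, and 723 in the 6 with and 548 in the 5 without in embryo 3. All 4 Cdx2 cells were of embryo 8, where the other 4 had a median of 634 CPM. Of the 7 Hand1 cells 6 were of embryo 3, at a median of 723 CPM against 227 in its other 5. Nanog was counted in 5 of 5 Tfap2c cells and 0 of the 3 others in embryo 8, and in 5 of 6 and 3 of 5 in embryo 3. The median depth of cells with and without Gata2 was 1666000 and 1584000 counts. These cells come from 2 embryos, so the pattern is given as a description with no test.

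**Figure D5:**
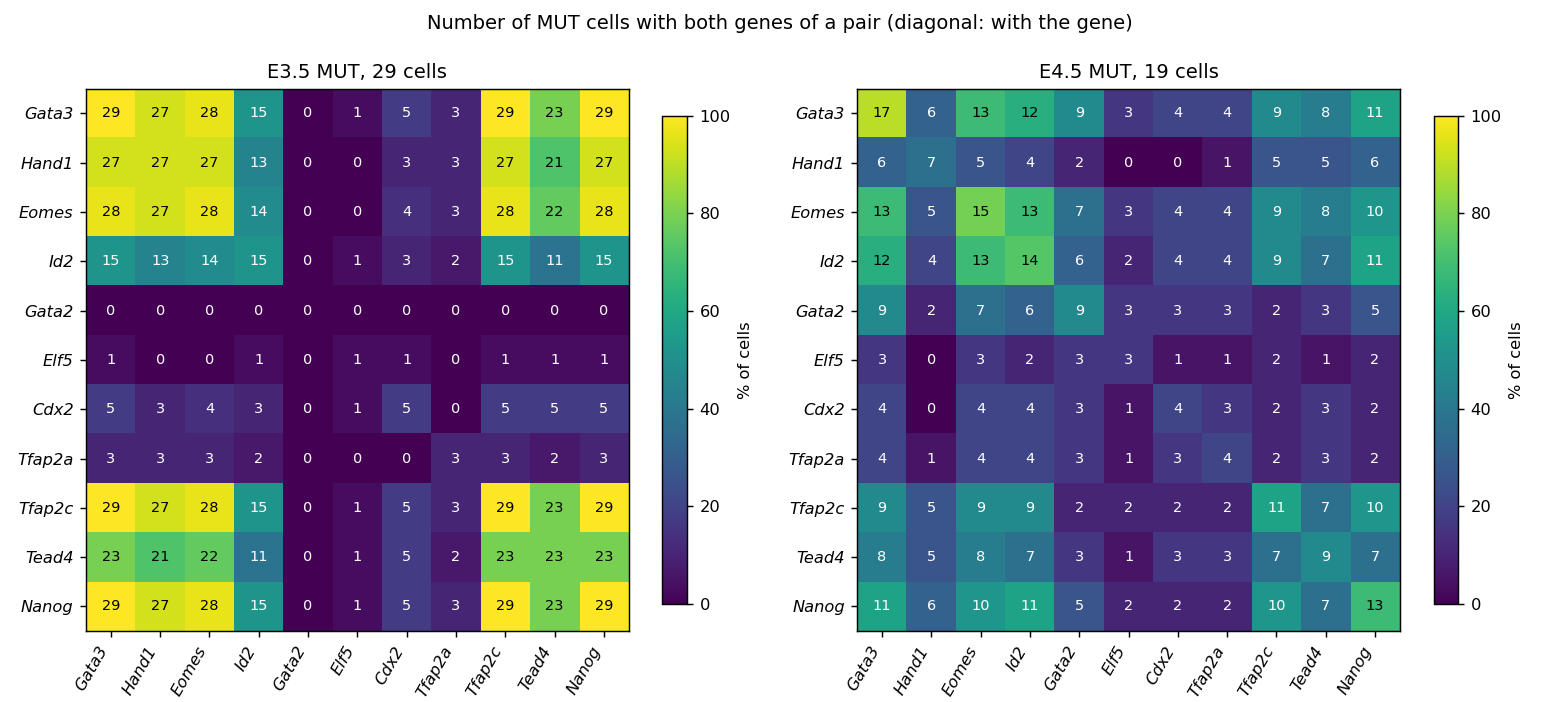
Number of MUT cells in which both genes of a pair had at least 1 count, with single genes on the diagonal, at E3.5 (29 cells) and E4.5 (19 cells), colour giving the share of cells. Gata3 with Hand1 is in 27 of 29 cells at E3.5 and 6 of 19 at E4.5, and Gata2 with Gata3 is in 0 and 9.

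Genes whose level most resembled that of a factor were sought over the 25 embryo sums by Pearson r of log2(CPM + 1), as a description. The sums include EPI and PrE of the same embryos and differ in stage, so they are not independent. For Hand1 the closest were Aqp9 (0.964), Trim43c (0.957) and Slc39a2 (0.938), and for Gata3 Tpsg1 (0.894), Dysf (0.891) and Slc39a2 (0.865). For Gata2 they were Adh1 (0.863) and Entpd1 (0.859), and Entpd1 was also the closest to Elf5 (0.865). For Tfap2c the closest was Spic (0.965), for Eomes Btg1 (0.818), for Id2 Tmem116 (0.802) and for Tead4 Grhl2 (0.801). Cdx2 and Tfap2a had Slc15a2 as the closest, at 0.742 and 0.663.

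Other genes of the network were followed in lists taken from textbook knowledge, with earlier results of these data known. The study had already reported Krt8, Krt18, Fabp3 and Cldn4 in E4.5 MUT cells, so calls of these genes are not independent of that report. Of 18 partners and upstream factors (Hippo pathway, E proteins and others), 0 were called at E3.5 by edgeR, 5 had an unadjusted p under 0.05 and 3 were called by DESeq2, with a median log2 fold change of -0.05 against -0.02 over all genes. Over all 12075 genes the corresponding numbers were 746, 2588 and 1607. Of 7 family paralogues tested 0 were called by edgeR, 1 had an unadjusted p under 0.05 and 1 was called by DESeq2. Of 10 other trophoblast transcription factors, Cited1, a transcriptional coactivator of the CITED family, was called higher (1.24 ± 0.30 SE, adjusted p = 0.0307, edgeR) and Arid3a lower (-4.63 ± 0.96 SE, adjusted p = 0.0141, edgeR). Of 12 structural TE genes, Fabp3, a fatty acid binding protein, (3.35 ± 0.58 SE, adjusted p = 0.00627, edgeR) and Cldn4, a tight junction claudin, (1.56 ± 0.34 SE, adjusted p = 0.0174, edgeR) were called higher and Atp1b1, a sodium pump subunit, lower (-2.42 ± 0.51 SE, adjusted p = 0.0148, edgeR).

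At E4.5 structural genes made up most of the calls in these lists. Against the whole ICM 7 of 16 were called higher, among them Cldn4 (4.4 ± 0.47 SE, adjusted p = 0.00131, edgeR), Krt18 (6 ± 0.69 SE, adjusted p = 0.00143, edgeR) and Fabp3 (3.05 ± 0.41 SE, adjusted p = 0.00281, edgeR), and 1, the placental gene Plac1, lower. The list's median log2 fold change was 3.70 against -0.10 over all genes. Over all genes tested against the whole ICM 3.1% were called higher and 4.27% lower. Of the partners 1 of 18 was called, Smad1, a BMP signal transducer, lower (adjusted p = 0.00762, edgeR). It had 0 counts in E4.5 MUT against 197 in EPI and 919 in PrE, at least 98.2-fold lower than in the whole ICM with a floor of 3 counts over the MUT cells. Of 14 paralogues Id3 (-3.27 ± 0.57 SE, adjusted p = 0.00965, edgeR) and Gata4 (-6.73 ± 1.57 SE, adjusted p = 0.0321, edgeR), a PrE factor, were lower and none was higher. Of 13 other trophoblast factors Cited2 was higher (1.16 ± 0.30 SE, adjusted p = 0.0447, edgeR). From E3.5 MUT to E4.5 MUT 8 of 16 structural genes were called higher and 0 lower, with a median of 3.08 against -0.03. Over all genes in that comparison 3.08% were called higher and 3.69% lower. Of 13 trophoblast factors Cited2 (5.28 ± 0.55 SE, adjusted p = 0.00993, edgeR) and Bhlhe40 (2.18 ± 0.49 SE, adjusted p = 0.0449, edgeR) were called higher.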

How the data were processed

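The data were Smart-seq2 libraries of single ICM cells. The authors aligned reads to GRCm38/mm10 with STAR and assigned them to Ensembl genes with htseq-count after filtering cells for quality, and the deposited values are raw counts per gene and cell with no normalization. Genotype, stage and lineage came from the labels, and embryo and plate from the study's sample table. Symbols came from GENCODE gene records (49326 of 49671 genes matched). No 2 cells repeated each other (highest correlation 0.9186).

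Counts were summed per embryo and group and scaled by TMM over 25 sums. Tests used edgeR 4.0.16 (quasi-likelihood F test, filterByExpr, Benjamini-Hochberg over all genes tested, threshold 0.05) in R 4.3.3, with DESeq2 1.42.0 and limma 3.58.1 as alternatives. The limma run weighted cells equally by taking the mean of log2(CPM + 1) over the cells of each embryo. It thus differs from the main test in the log step as well as in the weights. The authors tested cells with scde, which was not used here. Fits were tested on simulated data in which some genes were changed. Of genes changed by 2 on the log2 scale, 53% were recovered at E3.5, 18% against EPI and 9% against PrE. For a change of 4 the shares were 68%, 37% and 33%. A factor counted as detected in a cell from 1 count. Where a group had 0 counts, folds used 3 counts over that group as the floor. The study's sample table gives separate embryos, and p-values measure the spread between them. Pairing of EPI and PrE sums comes from the shared embryo (correlation of deviations 0.0146 to 0.0706).

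The factors, lists and tests were chosen with earlier results of these data known. Named genes were the 10 factors, Pou5f1, Nanog, for each factor the genes of highest Pearson r (of 3 kept, mean of 5 CPM or more, protein-coding), and up to 4 called genes a list. Alternatives were the tool, normalization, filter, equal weight of cells, wild-type controls only, each embryo left out, the embryo block, and, chosen after seeing the data, HET cell 8 of embryo 15 left out.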

Additional observations from a re-analysis of the deposited data

Results flagged for a closer look

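Over 33 sets of 4 to 7 embryos, each factor in each group, 9 had an embryo far from the others (Dixon's gap test at 95%), where chance gives about 1 in 20. That rate does not hold for 4 of the 9, in which every other embryo was at 0 and a lone embryo with counts is always picked out. Sets with at most 3 counts in every embryo were not tested, and 4 further sets, the mean number of factors a cell in each group, had no such embryo. In E3.5 WT/HET, embryo 15 stood out for Gata2 (12.15 CPM, the next at 0.2253) and Id2 (62.57 CPM, the next at 13.25), and it holds HET cell 8. In E3.5 MUT, embryo 17 stood out for Elf5 (1.378 CPM, the others at 0), all from cell 25. In EPI, embryo 1 stood out for Gata2 (9.288 CPM, the next at 0.4855) and embryo 4 for Hand1 (0.4035 CPM, the others at 0). In PrE, embryo 1 stood out for Gata3 (12.77 CPM, the next at 1.859), Cdx2 (1.902 CPM, the others at 0) and Tfap2c (0.6794 CPM, the others at 0), and embryo 4 for Gata2 (6.419 CPM, the next at 1.041).

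The effect of OCT4 loss differed between the stages by the interaction term for Gata2 (13.6 on the log2 scale, adjusted p = 0.048, edgeR) and Hand1 (6.68, adjusted p = 0.00306, edgeR). Stage and plate cannot be told apart in either.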

How the results depend on the processing

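Gata3 and Hand1 at E3.5 kept their calls in all 17 alternatives. Over 730 alternatives for single genes, 631 kept direction and side of the threshold, 57 lost the call, 27 gained it and 15 changed sign, and the cause was not tested. The 57 include DESeq2 runs that gave no adjusted p, for Gata3 against EPI and Nanog against PrE. Limits are the 2 MUT embryos at E4.5, the stage tied to the plate, and factors carried by few cells.

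Genes called were 746 at E3.5 (DESeq2 1607, cells weighted equally with limma 1353, wild-type controls only 435, leaving out 1 embryo 482 to 882), 637 against EPI (1694, 1479, 48, 226 to 774), 466 against PrE (1219, 1097, 27, 169 to 534), 1039 against the whole ICM (2385, 1770, 25, 524 to 1061) and 896 for the interaction (1816, 1445, 470, 562 to 1015). For EPI against PrE they were 958 (1451, 1824, 3). For MUT at E4.5 against E3.5 they were 860 (DESeq2 2652, limma 2247, leaving out 1 embryo 33 to 516, without embryo 3 the lowest).

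Factors called higher against EPI were 3 (limma 5, wild-type controls 0, leaving out 1 embryo 1 to 4), against PrE 1 (DESeq2 4, no filter 3, limma 5, leaving out 1 embryo 1 to 2), against the whole ICM 5 (wild-type controls 0, leaving out 1 embryo 1 to 6) and for the interaction 2 (leaving out 1 embryo 1 to 3). Between EPI and PrE 0 were higher (no filter 1, leaving out 1 embryo 0 to 1) and 1 lower (limma 2, wild-type controls 0). With the embryo as a replicate block 840 genes and 1 factor, Eomes, were called (1 factor lower), and no other call of a factor changed. Between MUT stages 1 was higher (limma 2, leaving out 1 embryo 0 to 1) and 0 lower (limma 2). With detection from 10 CPM, factors per cell were 3.55 in E3.5 WT/HET and 5.04 in E3.5 MUT.

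Signs changed with limma for Tead4 (-0.01 at E3.5, -0.34 against EPI, -0.19 against PrE, -0.32 against the whole ICM and -1.49 between MUT stages), Nanog against EPI (-2.03), Gata3 between MUT stages (-0.56) and Hand1 in the interaction (-2.12), and with wild-type controls for Tead4 in EPI against PrE (-0.10). Leaving out 1 embryo gave Tead4 -0.05 to 1.31 against EPI, -0.04 to 1.32 against the whole ICM, -0.12 to 0.48 for EPI against PrE and -0.72 to 0.60 between MUT stages, and Cdx2 -7.40 to 3.53 between MUT stages (without embryo 8 the lowest).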
